A study of Homo sapiens with 9 samples.

Results

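The 70 genes described here are the mitochondrial carriers and the subunits of the mitochondrial protein import machinery among the 15570 genes of a deposited expression table. Membership was set by gene symbol and used no measured value: 44 genes whose symbol begins with SLC25A and a number (the carriers), and 26 whose symbol begins with TIMM or TOMM and a number (the import subunits). Levels were measured by RNA-seq in hCMEC/D3 cells, an immortalized line from the endothelium of human brain microvessels grown as a stand-in for the blood-brain barrier in culture. All 9 libraries came from this 1 line. There were 3 control libraries from cells kept in ordinary culture, 3 from cells held for 4 h without glucose in an anaerobic chamber under 95% N2 and 5% CO2 (oxygen and glucose deprivation, OGD), and 3 from cells taken through that deprivation and then returned for 16 h to normal medium under 21% O2 and 5% CO2 (OGD and reoxygenation, OGD/R). The series has no group that was kept in culture for those 16 h without deprivation, so the time after deprivation and the return of oxygen and glucose cannot be told apart.

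Mitochondria make only a few of their own proteins. Almost all others are made in the cytosol and enter through the TOM complex of the outer membrane, after which the TIM23 complex moves proteins with a cleavable presequence into the inner membrane and the matrix, while small TIM chaperones of the intermembrane space hand multi-spanning membrane proteins to the TIM22 complex. The SLC25 carriers are the best known clients of the TIM22 route. Once inserted in the inner membrane, they exchange ADP for ATP and move phosphate, citrate, amino acids, nucleotides, cofactors, iron and glutathione between cytosol and matrix. The authors' deposited table annotates 40 of the 44 carriers and 15 of the 26 import subunits to the mitochondrial inner membrane, 1 carrier and 9 import subunits to the outer membrane, and 8 import subunits to the intermembrane space.

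Values are FPKM, fragments scaled to transcript length and to the number of mapped fragments, which are per length and so can be set side by side between genes. The 9 libraries summed to between 442696 and 605818 FPKM. The FPKM table carries no read depth, and the depth of each library is unknown. A gene was tested where it reached 1 FPKM in at least 3 libraries, which 10818 genes did, and was called higher or lower where limma's moderated test on log2(FPKM + 1) gave a Benjamini-Hochberg adjusted p under 0.05 over all of them. All fold changes below are on that log2 scale, which understates the change of genes at low levels. The deposited scale was not centred between groups: the median gene had a log2 fold change of -0.31 in OGD against control, 0.39 in OGD/R against OGD and 0.07 in OGD/R against control. Values called relative are differences from that median. Relative to short transcripts, long ones were also lower in OGD than in the other groups. In each library the deviation of a gene's log2 level from its mean over the 9 libraries was fitted on log2 transcript length. The slopes lay between -0.20 and -0.15 in the OGD libraries, -0.07 and 0.06 in control and 0.13 and 0.22 in OGD/R. They compare libraries and do not give the dependence of level on length within a library. Because the carriers and import subunits differ in length, with medians of 2673 and 1694.5 bases over their tested members against 3084.5 for all genes, the counts for both classes are given with that trend removed as well.

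Of the endothelial markers examined, 6 of 12 reached 1 FPKM. The summed level of the 12 lay between 48.1 and 60.7 FPKM in control cells, between 35.1 and 36.1 under OGD and between 102.5 and 115.7 after reoxygenation. It was carried by MCAM (means of 24.5, 21.6 and 59.9 FPKM), ENG (13.8, 6.65 and 33.7) and EGFL7 (12.2, 5.84 and 9.83). EGFL7 stayed below its control mean after reoxygenation. CDH5, PECAM1 and ESAM reached at most 2.62, 1.55 and 1.36 FPKM. VWF, CLDN5, KDR, TEK, TIE1 and ERG, which define endothelium, stayed under 0.43 FPKM in every library. Summed fibroblast markers moved in the same order (20.4 to 28.2, 9.16 to 10.7 and 51.9 to 69.2 FPKM), carried by COL1A1 and COL1A2, while LUM stayed between 2.87 and 4.68 FPKM and DCN and PDGFRA stayed near 0. Summed pericyte markers did so too (5.70 to 10.4, 3.80 to 5.05 and 12.6 to 13.8), carried by PDGFRB and CSPG4, while RGS5 averaged 1.96, 2.21 and 1.26 FPKM and KCNJ8 was at or near 0. Leukocyte and microglia markers summed to 17.2 to 20.7, 20.6 to 21.7 and 25.7 to 27.2 FPKM, almost all of it CD68, a lysosomal protein of macrophages that other cells also make, with PTPRC and AIF1 near 0. The sums of astrocyte, neuron and epithelial markers stayed under 1 FPKM. The part of these shifts in the results below was not tested, and fewer cells of a kind and less RNA per cell cannot be told apart in bulk RNA.

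Many import subunits stood higher after deprivation and lower again after reoxygenation. In OGD against control, 12 of the 24 tested import subunits rose, by 0.35 to 0.89, and 2 fell, where 11.3% of all genes tested were called higher and 46.7% lower. In OGD/R against OGD, 15 of 24 fell, by between -1.27 and -0.23, and 3 rose, against 17.4% of all genes lower and 53.3% higher. In OGD/R against control, 7 fell and 2 rose, against 16.5% lower and 24.7% higher. The median import subunit changed by 0.27, -0.46 and -0.20 in the 3 comparisons, or by 0.58, -0.85 and -0.26 relative to the median gene. Together the 26 import genes made up between 0.324% and 0.379% of all FPKM in control cells, between 0.403% and 0.416% under OGD and between 0.280% and 0.325% after reoxygenation.

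The direction of the import counts did not turn under another scaling. With median-of-ratios scaling, which centres the libraries, 19 import subunits were higher and 0 lower in OGD (all genes 27.1% and 22.4%), and 0 were higher and 19 lower in OGD/R against OGD (31.7% and 35%). With the length trend removed the counts were 17 higher and 0 lower in OGD (21.3% and 23.4%), then 2 higher and 17 lower (30% and 30.9%). Quantile normalization gave 15 higher and 0 lower (20% and 22.4% of all genes), then 1 higher and 17 lower (31.4% and 31.3%), and against control 2 higher and 8 lower (22.1% and 23.1%). Against control, OGD/R had 1 import subunit higher and 8 lower with median-of-ratios scaling (21.6% and 23.6% of all genes), and 1 and 6 with the length trend removed (20.6% and 23.1%). Of the 12 subunits higher in OGD, 10 kept their call under all 15 alternatives tried, as did 12 of the 15 that fell in OGD/R against OGD and 5 of the 7 lower in OGD/R against control. In all 12 the 3 OGD libraries lay above the other 6, a pattern that 10.5% of all genes tested showed. The OGD libraries enter both of the first 2 comparisons, so a rise in OGD and a fall to OGD/R are not independent of each other.

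**Figure D1:**
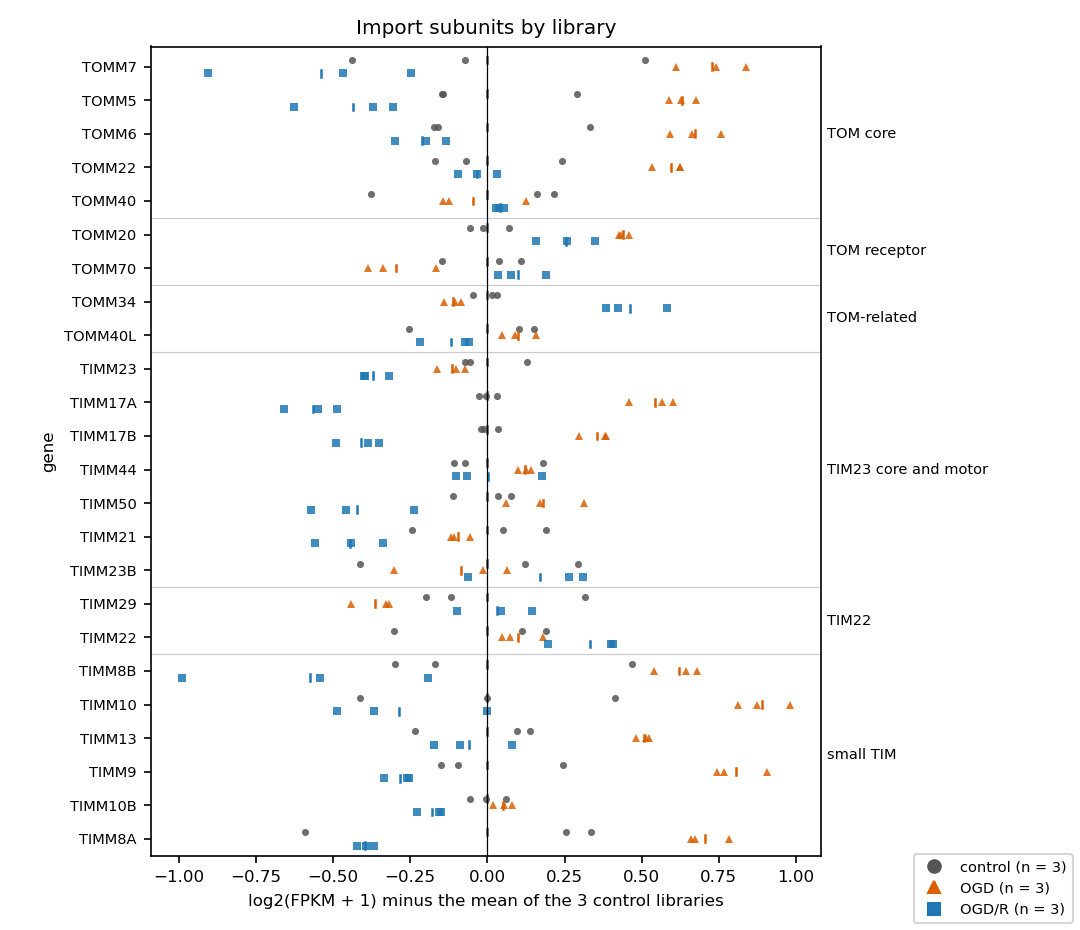
Level of each tested import subunit in every library, as log2(FPKM + 1) minus the mean of the 3 control libraries, grouped by complex; symbols are single libraries (grey circles control, orange triangles OGD, blue squares OGD/R) and short bars are group means, n = 3 per group. The OGD triangles of TOMM5, TOMM6, TOMM7, TOMM20, TOMM22, TIMM17A, TIMM17B and 5 of the 6 small TIM genes lie to the right of every other symbol in their row.

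The TOM complex is the general entry gate, built around the pore protein TOMM40 with the receptor-like TOMM22 and the small subunits TOMM5, TOMM6 and TOMM7, which stabilise the assembly. TOMM22 and all 3 small subunits rose in OGD and fell in OGD/R against OGD, whereas the pore gene passed neither comparison on the deposited scale. TOMM7 (chr7:22812974-22822849), the most abundant import transcript, read 353, 274 and 529 FPKM in the control libraries, 567, 663 and 621 in OGD and 312, 198 and 268 in OGD/R. Its 3 OGD libraries were the highest, control and OGD/R overlapped, and the control libraries themselves spread widely. The change was 0.73 (SE 0.21, adjusted p = 0.011) in OGD and -1.27 (SE 0.21, adjusted p = 0.00017) from OGD to OGD/R, and the first was lost with quantile normalization at 0.47 (adjusted p = 0.0522). TOMM5 followed with 255, 254 and 344 FPKM in the control libraries, 423, 435 and 449 in OGD and 227, 182 and 217 in OGD/R, and TOMM6 with 200.3, 199 and 282 FPKM in the control libraries, 338, 355 and 379 in OGD and 204, 195 and 182 in OGD/R. In both, every OGD library exceeded every other library, and control replicate 3 was the highest control. TOMM5 changed by 0.63 (adjusted p = 0.0013) and -1.06 (adjusted p = 1.2e-05), and TOMM6 by 0.67 (adjusted p = 0.00089) and -0.88 (adjusted p = 5.3e-05). TOMM22 read 38.4, 35.8 and 47.9 FPKM in the control libraries, 62.8, 62.9 and 58.9 in OGD and 41.3, 39.4 and 37.7 in OGD/R, a rise of 0.59 (adjusted p = 0.00064) and then a return of -0.63 (adjusted p = 0.00019), with control and OGD/R overlapping.

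TOMM40, the pore itself, read 43, 44.8 and 29.3 FPKM in the control libraries, 34.6, 35.2 and 41.9 in OGD and 39.8, 39.2 and 39.4 in OGD/R. The 3 groups overlapped and no comparison passed, with a change in OGD of -0.05 (SE 0.14, adjusted p = 0.78), and relative to the median gene of 0.26. Summed over the 5 core genes, the level lay between 806.5 and 1232 FPKM in control cells, between 1425 and 1551 under OGD and between 653 and 824 after reoxygenation, and TOMM40 contributed at most 44.8 of it in any library. With median-of-ratios scaling TOMM40 too was lower in OGD/R than in OGD, at -0.39 (adjusted p = 0.028), so that all 5 core genes were called lower. TOMM40L, a paralogue of TOMM40, stayed between 6.74 and 9.30 FPKM and passed no test on the deposited scale, but with median-of-ratios scaling it was higher in OGD, at 0.44 (adjusted p = 0.0081), and lower from OGD to OGD/R, at -0.65 (adjusted p = 0.00043).

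The presequence receptor TOMM20 and the carrier-precursor receptor TOMM70 moved in opposite directions on the deposited scale. TOMM20 (chr1:235109341-235128837) read 40.7, 41.9 and 44.5 FPKM in the control libraries, 57.5, 58.5 and 57.2 in OGD and 47.3, 54.2 and 50.8 in OGD/R. It rose in OGD by 0.44 (SE 0.0828, adjusted p = 0.00092) and was still 0.25 (adjusted p = 0.027) above control in OGD/R, a call lost with median-of-ratios scaling at 0.15 (adjusted p = 0.17). TOMM70, which receives the carriers with the help of cytosolic chaperones, read 18, 21.7 and 20.6 FPKM in the control libraries, 17.7, 15.1 and 15.7 in OGD and 20.5, 23 and 21.2 in OGD/R. Its fall of -0.30 (adjusted p = 0.028) in OGD was the size of the median gene's shift (relative change 0.01) and became 0.07 (adjusted p = 0.61) with median-of-ratios scaling, so no direction relative to other genes is shown. TOMM34, a cytosolic cochaperone of preproteins, read 29.3, 29.7 and 28 FPKM in the control libraries, 26.2, 26.9 and 27.3 in OGD and 39.2, 43.9 and 38.2 in OGD/R. Of the 24 tested TIMM and TOMM genes it had the largest rise against control in OGD/R, 0.46 (SE 0.0858, adjusted p = 0.0013), with every OGD/R library above the other 6, and this call held under all 15 alternatives. Its rise from OGD of 0.57 (adjusted p = 7.8e-05) was lost with median-of-ratios scaling at 0.10 (adjusted p = 0.29).

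The small TIM proteins form hexameric chaperones in the intermembrane space: TIMM9 with TIMM10 for carriers, TIMM8A with TIMM13 for other precursors. Of the 6 genes, 5 rose in OGD (11.3% of all genes) and 6 fell in OGD/R against OGD (17.4% of all genes). Their summed level lay between 213 and 329.6 FPKM in control cells, between 407 and 426 under OGD and between 178 and 238 after reoxygenation. TIMM10 (chr11:57528464-57530754) read 63.2, 47.2 and 84.6 FPKM in the control libraries, 112, 117 and 126 in OGD and 63.2, 44.8 and 48.8 in OGD/R. This was the largest rise of any import subunit, 0.89 (SE 0.177, adjusted p = 0.0013), followed by -1.17 (SE 0.177, adjusted p = 8.3e-05). Its partner TIMM9 (chr14:58408494-58427531) read 29.3, 30.4 and 38.8 FPKM in the control libraries, 62, 56.1 and 55.3 in OGD and 25.6, 27.2 and 27.1 in OGD/R, with changes of 0.81 (SE 0.108, adjusted p = 0.00011) and -1.09 (SE 0.108, adjusted p = 3.3e-06). In both genes the OGD libraries stood apart from the other 6. Both are short, at 680 and 1336 bases, and with the length trend removed the rises were 0.75 and 0.85.

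TIMM13 read 47.6, 37.6 and 49 FPKM in the control libraries, 64.3, 63.8 and 62.5 in OGD and 47, 39.4 and 41.7 in OGD/R and changed by 0.51 (adjusted p = 0.002) and -0.57 (adjusted p = 0.0005). TIMM8A, mutated in a syndrome of deafness and dystonia, read 13.5, 6.63 and 12.7 FPKM in the control libraries, 17.1, 17.3 and 18.7 in OGD and 7.56, 7.74 and 7.9 in OGD/R. Its rise of 0.70 (adjusted p = 0.0085) leaned on control replicate 2, the lowest library of its group, without which it was 0.41 (adjusted p = 0.0077). TIMM8B read 84.4, 77.1 and 132 FPKM in the control libraries, 139, 153 and 149 in OGD and 83, 47.4 and 64.9 in OGD/R, with a rise of 0.62 (adjusted p = 0.02) that was lost without control replicate 1, at 0.54 (adjusted p = 0.072), and without control replicate 2, at 0.47 (adjusted p = 0.075). Its fall from OGD to OGD/R was -1.20 (adjusted p = 0.0002). The lower level of OGD/R against control, -0.58 (adjusted p = 0.038), was lost without control replicate 3, at -0.34 (adjusted p = 0.14), and without OGD/R replicate 2, at -0.37 (adjusted p = 0.18). TIMM10B, which joins the small chaperones to TIMM22, read 13.2, 13.8 and 12.7 FPKM in the control libraries, 13.4, 13.8 and 14 in OGD and 11.8, 11.1 and 11.8 in OGD/R. It changed by 0.05 (adjusted p = 0.66) in OGD. Its small fall to OGD/R, -0.23 (adjusted p = 0.0454), did not outlast the removal of any 1 OGD or OGD/R library.

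The TIM23 complex is the presequence translocase, with TIMM23 and TIMM17A or TIMM17B in the membrane, TIMM50 as receptor, TIMM21 as a link to TOM and TIMM44 holding the import motor. Of its 7 tested genes, 2 rose in OGD, 5 fell from OGD to OGD/R and 5 were lower in OGD/R than in control. For all genes the shares were 11.3%, 17.4% and 16.5%. With median-of-ratios scaling 5 were higher in OGD (27.1% of all genes). With the length trend removed (21.3%) or quantile normalization (20%) 4 were, TIMM44 and TIMM50 among them under each of these settings. TIMM17A (chr1:201955503-201970664) read 97, 98.6 and 101 FPKM in the control libraries, 147, 136 and 151 in OGD and 67.2, 62.2 and 70.2 in OGD/R. The 3 groups did not overlap in any pairing, with changes of 0.54 (SE 0.0811, adjusted p = 0.00022), -1.11 (SE 0.0811, adjusted p = 4.0e-07) and, against control, -0.57 (SE 0.0811, adjusted p = 0.00025). Its paralogue TIMM17B read 44.7, 44.9 and 46.4 FPKM in the control libraries, 55.9, 59.5 and 59.4 in OGD and 34.5, 32 and 35.3 in OGD/R. TIMM17B changed in the same directions, by 0.35 (adjusted p = 0.0027), -0.76 (adjusted p = 5.0e-06) and -0.41 (adjusted p = 0.0017). All 6 of these calls held under all 15 alternatives.

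TIMM50 read 24.2, 21.1 and 23.5 FPKM in the control libraries, 28.7, 25.9 and 23.9 in OGD and 19.3, 15.1 and 16.4 in OGD/R. It did not pass in OGD but was lower in OGD/R than in OGD by -0.60 (adjusted p = 0.0004) and than in control by -0.42 (adjusted p = 0.0099). TIMM23, the channel subunit, read 113, 114 and 130.4 FPKM in the control libraries, 111, 113 and 106 in OGD and 90.1, 90.3 and 95.4 in OGD/R. Its OGD/R libraries were the lowest 3, at -0.37 (adjusted p = 0.0039) against control, whereas OGD differed by -0.11 (SE 0.083, adjusted p = 0.25) only. TIMM21 read 23.2, 16.9 and 21 FPKM in the control libraries, 18.7, 18.5 and 19.4 in OGD and 13.4, 15.8 and 14.6 in OGD/R, and OGD/R was -0.45 (adjusted p = 0.0099) below control. TIMM44 read 35.2, 29.4 and 28.6 FPKM in the control libraries, 33.2, 33.9 and 34.3 in OGD and 29.5, 35.1 and 28.8 in OGD/R, the groups overlapped and no comparison passed. TIMM23B, which is nearly identical in sequence to TIMM23, stayed between 3.39 and 6.25 FPKM with no call, and reads could be split between the pair in a way the table does not record.

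In the TIM22 complex, which inserts the carriers themselves, neither gene rose in OGD on the deposited scale. TIMM22 read 10.3, 7 and 9.68 FPKM in the control libraries, 9.38, 9.2 and 10.2 in OGD and 12.1, 12 and 10.3 in OGD/R and passed no comparison there. It was higher in OGD with median-of-ratios scaling, at 0.45 (adjusted p = 0.017), with quantile normalization, at 0.47 (adjusted p = 0.019), and with the length trend removed, at 0.37 (adjusted p = 0.038). TIMM29, its metazoan partner, read 15.7, 11.4 and 10.7 FPKM in the control libraries, 8.88, 9.71 and 9.76 in OGD and 11.5, 12.9 and 13.8 in OGD/R. It fell by -0.36 (adjusted p = 0.039) in OGD, close to the median gene (relative change -0.05), with a sign that turned under quantile normalization, and without control replicate 1 the value was -0.20 (adjusted p = 0.15). Its rise to OGD/R of 0.39 (adjusted p = 0.022) equalled the median gene's shift and became -0.06 (adjusted p = 0.68) with median-of-ratios scaling.

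Promoter sequences were examined because 12 import genes shared 1 pattern over the 9 libraries. In RefSeq's GRCh38.p14 promoters, taken as the 250 bases before each gene's start, 24 of 26 import genes and 37 of 44 carriers had an entry. The motif CCGGAAG, the core bound by ETS-family factors, occurred on either strand in 10 of 24 import promoters (41.7%), 10 of 37 carrier promoters (27%) and 10.2% of all 27305. Those 27305 include promoters of genes that were not listed or not tested here. The share among tested genes was not computed for any motif. Among the 10 import genes with a promoter entry that rose in OGD, 4 held it: TIMM10, TIMM13, TOMM6 and TOMM20. It also occurred in TIMM10B, TIMM23, TIMM29, TOMM70, TIMM23B and the read-through that starts with TIMM23B, none of which rose in OGD on the deposited scale. The last 2 share a promoter, which is counted under both names. The NRF1 motif with its middle base left free was found in 5 import promoters (20.8%), 3 carrier promoters (8.11%) and 6.2% of all, and the exact NRF1 palindrome in 0 of either and 1.28% of all. The element bound by C/EBP-ATF dimers under the stress response, TGATGNAA, occurred in 1 import promoter (TIMM22) and 1 carrier promoter (SLC25A11), against 3.89% of all. The ER stress element (a CCAAT box, a gap and CCACG) occurred in 0 of either and 0.0916% of all. The ETS motif and the freer NRF1 motif were added after the expression values had been seen, and a match is a description of letters and not of binding.
The 150 bases before the start of the 4 genes that rose in OGD and carry the ETS core are shown here 5′ to 3′ on the gene's strand, with that core in capitals (CTTCCGG is the core read on the other strand).
TIMM10, chr11:57530755-57530904, minus strand: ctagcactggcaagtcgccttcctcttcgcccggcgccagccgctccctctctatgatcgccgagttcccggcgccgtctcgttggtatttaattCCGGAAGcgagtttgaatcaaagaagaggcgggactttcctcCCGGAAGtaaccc
TIMM13, chr19:2427587-2427736, minus strand: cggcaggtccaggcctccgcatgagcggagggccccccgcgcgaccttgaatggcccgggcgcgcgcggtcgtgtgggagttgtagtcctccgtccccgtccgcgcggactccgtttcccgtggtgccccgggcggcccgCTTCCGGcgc
TOMM6, chr6:41787544-41787693, plus strand: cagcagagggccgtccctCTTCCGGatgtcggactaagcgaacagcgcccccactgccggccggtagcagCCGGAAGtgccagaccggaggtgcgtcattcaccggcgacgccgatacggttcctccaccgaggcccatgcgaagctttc
TOMM20, chr1:235128838-235128987, minus strand: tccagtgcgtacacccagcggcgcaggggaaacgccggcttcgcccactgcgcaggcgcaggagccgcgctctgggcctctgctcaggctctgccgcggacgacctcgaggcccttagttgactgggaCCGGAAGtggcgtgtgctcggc

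Carriers had no common direction. On the deposited scale 6 of the 37 tested carriers rose in OGD, by 0.20 to 0.87, and 16 fell, by between -1.12 and -0.43, where 11.3% and 46.7% of all genes were called. From OGD to OGD/R 16 rose and 9 fell, against 53.3% and 17.4% of all genes, and in OGD/R against control 3 were higher and 6 lower, against 24.7% and 16.5%. The median carrier changed by -0.14, 0.21 and -0.10, or by 0.17, -0.18 and -0.17 relative to the median gene. The balance of the calls turned with the scaling, as did that of all genes. Median-of-ratios scaling gave 13 carriers higher and 7 lower in OGD (all genes 27.1% and 22.4%). From OGD to OGD/R it gave 6 higher and 18 lower (31.7% and 35%), and against control 3 and 13 (21.6% and 23.6%). Removal of the length trend gave 10 and 10 (21.3% and 23.4%), 8 and 14 (30% and 30.9%), and 4 and 11 (20.6% and 23.1%). The carriers took between 0.195% and 0.232% of all FPKM in control cells, between 0.185% and 0.220% under OGD and between 0.207% and 0.225% after reoxygenation, ranges that overlap. The calls in OGD that held under all 15 alternatives were SLC25A6, SLC25A26 and SLC25A37 higher in OGD, and SLC25A12, SLC25A23, SLC25A24, SLC25A30, SLC25A36 and SLC25A40 lower.

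**Figure D2:**
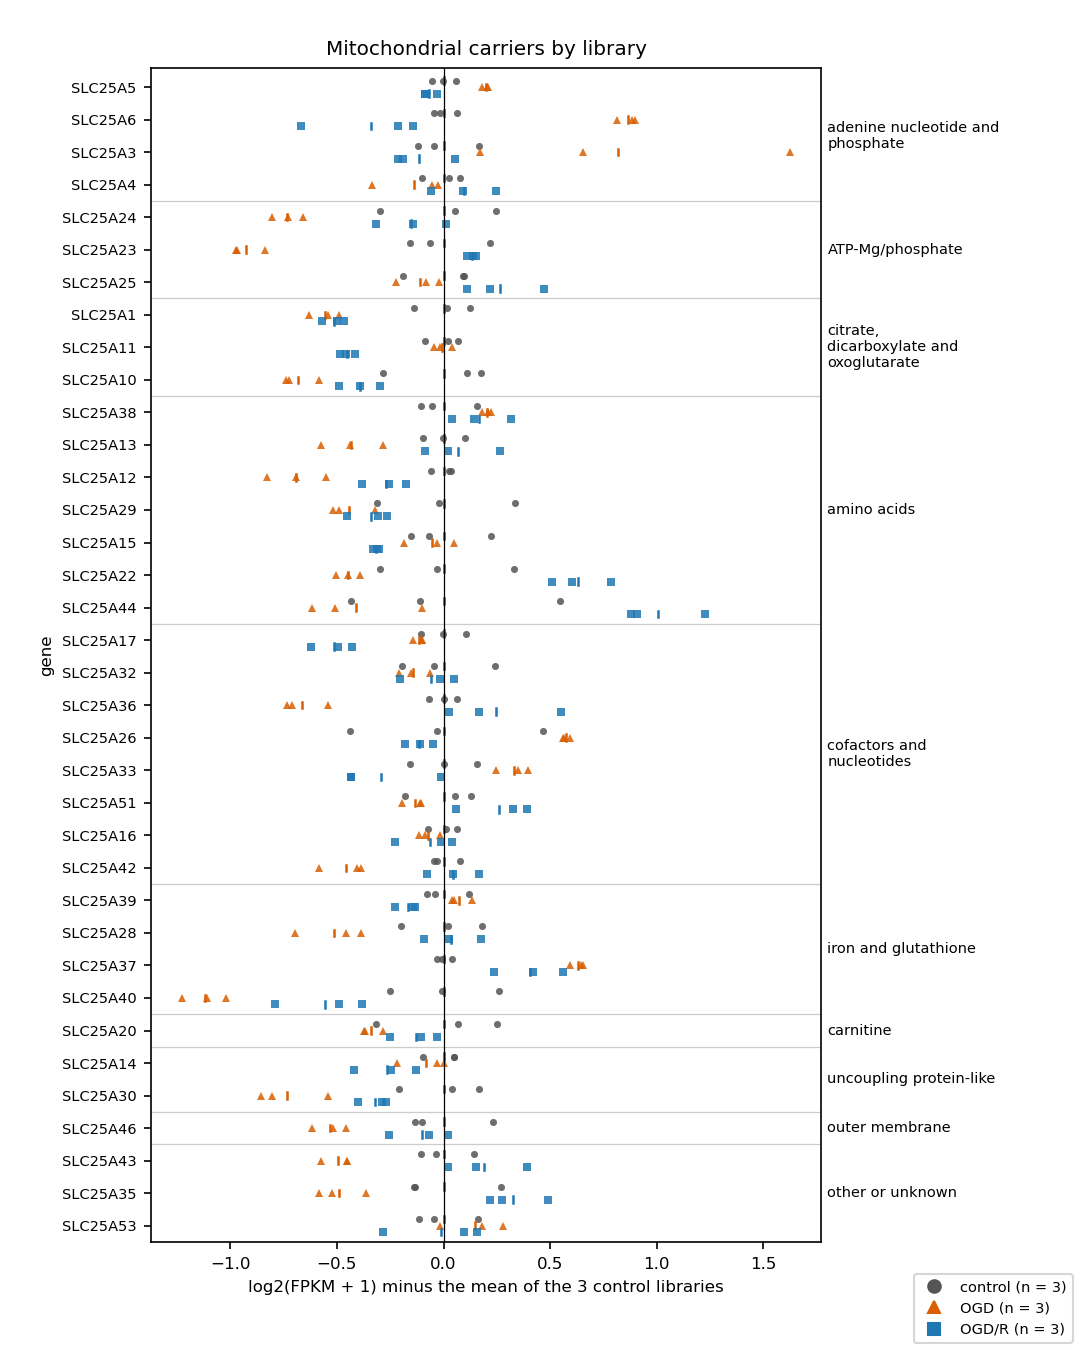
Level of each tested carrier but 1 in every library, as log2(FPKM + 1) minus the mean of the 3 control libraries, grouped by transported substrate; symbols are single libraries and short bars are group means, n = 3 per group. OGD triangles fall on both sides of 0, from SLC25A40 at the left to SLC25A6 and SLC25A3 at the right, and the single SLC25A3 triangle beyond 1.5 is OGD replicate 1.

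The adenine nucleotide translocases exchange matrix ATP for cytosolic ADP, and SLC25A3 brings in the phosphate that ATP synthase consumes. Of these 4 genes 3 rose in OGD (11.3% of all genes) and 3 fell to OGD/R (17.4% of all genes). SLC25A6 (ANT3, chrX:1386152-1392113, in the pseudoautosomal region shared by X and Y) read 90.7, 92.4 and 97.9 FPKM in the control libraries, 175, 166 and 174 in OGD and 84.7, 58.5 and 80.7 in OGD/R. Every OGD library stood far above every control library, with a change of 0.87 (SE 0.12, adjusted p = 0.00013), and the fall to OGD/R was -1.21 (SE 0.12, adjusted p = 3.4e-06). OGD/R was also -0.34 (adjusted p = 0.038) below control, a call lost under 10 of the 15 alternatives. Among these were the removal of any 1 control or OGD library (adjusted p = 0.0531 to 0.0872), quantile normalization and removal of the length trend. Without OGD/R replicate 2, the lowest library, the value was -0.18 (adjusted p = 0.12). SLC25A5 (ANT2), the most abundant carrier transcript, read 279, 269 and 291 FPKM in the control libraries, 323, 317 and 323 in OGD and 263, 273 and 263 in OGD/R. Its rise of 0.20 (adjusted p = 0.0452) and fall of -0.27 (adjusted p = 0.0084) were small. The rise was lost under 9 of the 15 alternatives, among them the removal of any 1 OGD library (adjusted p = 0.107 to 0.128) and the replicate block (adjusted p = 0.0953), and under quantile normalization both signs turned, to -0.04 (adjusted p = 0.69) and 0.15 (adjusted p = 0.07). SLC25A4 (ANT1), the form of heart and muscle, read 8.85, 8.03 and 9.21 FPKM in the control libraries, 8.52, 6.67 and 8.33 in OGD and 9.31, 10.5 and 8.31 in OGD/R and passed no comparison. SLC25A5 and SLC25A6 have 9 and 6 named pseudogenes, so that reads may have been shared with copies. The same limit holds for all 14 carriers and 9 import subunits with named pseudogenes, among them TOMM22 (6), TOMM20 (4), TOMM40 (4) and TIMM9 (3).

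SLC25A3 (chr12:98593686-98606367) read 83.6, 87.9 and 102 FPKM in the control libraries, 283, 143 and 102 in OGD and 79.4, 94.1 and 78.2 in OGD/R. Its OGD libraries differed from each other by more than those of any other tested member, and the size of the rise of 0.82 (SE 0.263, adjusted p = 0.018) leaned on OGD replicate 1. Without that library the change was 0.41 (adjusted p = 0.037), and without control replicate 1 it did not pass, at 0.76 (adjusted p = 0.058). The fall to OGD/R was -0.94 (adjusted p = 0.0067), and -0.53 (adjusted p = 0.0082) without OGD replicate 1.

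The ATP-Mg/phosphate carriers, which set the size of the matrix adenine nucleotide pool under control of calcium, went the other way. SLC25A23 (chr19:6436081-6459792) read 20.2, 16.5 and 15.4 FPKM in the control libraries, 9.21, 8.32 and 8.29 in OGD and 19.2, 19.1 and 18.7 in OGD/R. It fell by -0.92 (SE 0.113, adjusted p = 5.7e-05) and recovered by 1.06 (SE 0.113, adjusted p = 5.5e-06) to levels that overlapped control, and both calls held under all 15 alternatives. SLC25A24 read 29.3, 33.6 and 22.7 FPKM in the control libraries, 17.5, 15.7 and 16.6 in OGD and 22.4, 28.4 and 25.4 in OGD/R, a fall of -0.73 (adjusted p = 0.00082) in OGD. Its rise of 0.58 (adjusted p = 0.002) was lost with median-of-ratios scaling at 0.11 (adjusted p = 0.39). SLC25A25 read 4.3, 4.32 and 3.36 FPKM in the control libraries, 3.9, 3.69 and 3.27 in OGD and 4.78, 4.36 and 5.89 in OGD/R and did not pass in OGD. Its rise to OGD/R of 0.37 (adjusted p = 0.031) was that of the median gene and turned to -0.02 with median-of-ratios scaling.

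Carriers of citrate, dicarboxylates and oxoglutarate feed cytosolic lipid synthesis and the malate-aspartate shuttle. All 3 tested members were lower in OGD/R than in control, as were 16.5% of all genes. SLC25A1, the citrate carrier (chr22:19175581-19178736), read 91.9, 85.1 and 76.4 FPKM in the control libraries, 54, 57.6 and 59.8 in OGD and 59.4, 60.6 and 56.4 in OGD/R. It fell by -0.55 (SE 0.0893, adjusted p = 0.00035) in OGD, lost with median-of-ratios scaling at -0.18 (adjusted p = 0.11), and was still -0.51 (adjusted p = 0.00084) below control in OGD/R, which held under all 15 alternatives. SLC25A11, the oxoglutarate carrier, read 66.2, 64 and 59.4 FPKM in the control libraries, 61.3, 62.5 and 64.8 in OGD and 47, 45.6 and 44.8 in OGD/R. It did not pass in OGD on the deposited scale (-0.01, adjusted p = 0.95; 0.37 with median-of-ratios scaling) and was lower in OGD/R than in either other group, by -0.45 (adjusted p = 0.00028) and -0.45 (adjusted p = 0.00084), both of which held throughout. SLC25A10, the dicarboxylate carrier, read 17.2, 18 and 12.8 FPKM in the control libraries, 9.17, 10.2 and 9.07 in OGD and 11.8, 11 and 12.7 in OGD/R. Its fall in OGD was -0.68 (adjusted p = 0.00098), lost with quantile normalization at -0.33 (adjusted p = 0.0522). The level of OGD/R against control, -0.39 (adjusted p = 0.03), was lost when control replicate 1 or 2 or OGD/R replicate 1 or 2 was left out, and with no expression filter.

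Among amino acid carriers 4 of 7 fell in OGD and 4 rose to OGD/R on the deposited scale, shares close to those of all genes (46.7% lower and 53.3% higher). With median-of-ratios scaling 1 was higher and 1 lower in OGD (all genes 27.1% and 22.4%), and 2 were higher and 3 lower from OGD to OGD/R (31.7% and 35%). With the length trend removed the counts were 1 and 1 (21.3% and 23.4%), then 2 and 1 (30% and 30.9%). Both aspartate/glutamate carriers of the malate-aspartate shuttle fell in OGD on the deposited scale. Their ratio did not pass between the groups in the exact permutation test described below (p = 0.05, adjusted p = 0.083). SLC25A12 (aralar) read 11.6, 11.7 and 10.9 FPKM in the control libraries, 6.65, 5.96 and 7.45 in OGD and 9.37, 9.95 and 8.48 in OGD/R, and its fall of -0.69 (SE 0.115, adjusted p = 0.00044) held under all 15 alternatives. SLC25A13 (citrin) read 14.5, 15.7 and 13.5 FPKM in the control libraries, 9.43, 10.5 and 11.8 in OGD and 13.6, 17.7 and 14.8 in OGD/R, and its fall of -0.43 (adjusted p = 0.0095) was lost with median-of-ratios scaling at -0.08 (adjusted p = 0.56). Their rises to OGD/R, 0.42 (adjusted p = 0.0058) and 0.50 (adjusted p = 0.0029), were close to the median gene's, and the first turned to -0.02 with median-of-ratios scaling. The glutamate carrier SLC25A22 (chr11:790475-798281) and the branched-chain amino acid carrier SLC25A44 (chr1:156194104-156212796) had the largest rises of any member in OGD/R against OGD. SLC25A22 read 5.37, 3.96 and 3.12 FPKM in the control libraries, 2.58, 2.72 and 2.86 in OGD and 6.21, 7.75 and 6.7 in OGD/R, so that every OGD/R library lay above the other 6, by 1.08 (SE 0.159, adjusted p = 6.8e-05) against OGD and 0.63 (SE 0.159, adjusted p = 0.0075) against control. SLC25A44 read 5.97, 2.54 and 3.42 FPKM in the control libraries, 2.36, 3.45 and 2.11 in OGD and 7.95, 10.2 and 7.81 in OGD/R, again with OGD/R above all others, by 1.41 (SE 0.226, adjusted p = 0.00013) against OGD, and at 2.01 times the control level on the FPKM + 1 scale (adjusted p = 0.004). These 4 calls held under all 15 alternatives.

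The falls of SLC25A22 and of the basic amino acid carrier SLC25A29 in OGD, -0.45 (adjusted p = 0.029) and -0.44 (adjusted p = 0.029), were not stable and came to -0.28 (adjusted p = 0.11) and -0.27 (adjusted p = 0.12) without control replicate 1. SLC25A29 read 9.56, 7.23 and 5.73 FPKM in the control libraries, 4.96, 4.84 and 5.68 in OGD and 5.11, 5.97 and 5.75 in OGD/R. The glycine carrier SLC25A38, needed for heme synthesis, ranged from 15.3 to 20.8 FPKM over all libraries and passed no comparison on the deposited scale, but with median-of-ratios scaling it was higher in OGD, at 0.57 (adjusted p = 0.00022), and lower from OGD to OGD/R, at -0.50 (adjusted p = 0.00016). The ornithine carrier SLC25A15 ranged from 3.62 to 5.79 FPKM with no call. Neither the carnitine-acylcarnitine carrier SLC25A20, at 6.38 to 10.4 FPKM, nor the folate or FAD carrier SLC25A32, at 17.7 to 24.6 FPKM, passed a comparison.

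Cofactor and nucleotide carriers split. SLC25A26, which imports S-adenosylmethionine, read 9.09, 12.4 and 17.9 FPKM in the control libraries, 19.6, 19.1 and 19.2 in OGD and 11.1, 11.6 and 12.2 in OGD/R. The OGD libraries were tightly grouped above a scattered control group, and the rise of 0.57 (adjusted p = 0.014) became 0.35 (adjusted p = 0.0494) without control replicate 1. It then fell by -0.69 (adjusted p = 0.0037). SLC25A17, a peroxisomal carrier of cofactors, read 44.6, 41.2 and 38.3 FPKM in the control libraries, 38.4, 37.2 and 38.4 in OGD and 26.5, 29 and 30.4 in OGD/R, and was lower in OGD/R than in OGD by -0.40 (adjusted p = 0.0016) and than in control by -0.52 (adjusted p = 0.00083). The coenzyme A carrier SLC25A42 read 2.36, 2.12 and 2.09 FPKM in the control libraries, 1.12, 1.44 and 1.4 in OGD and 2.28, 2.02 and 2.58 in OGD/R. Its fall and rise, -0.46 (adjusted p = 0.0085) and 0.50 (adjusted p = 0.0034), were lost with median-of-ratios scaling. The NAD carrier SLC25A51 read 6.28, 5.91 and 4.86 FPKM in the control libraries, 4.82, 5.16 and 5.19 in OGD and 5.92, 7.35 and 7.73 in OGD/R. It did not pass in OGD, and its rise to OGD/R of 0.39 (adjusted p = 0.019) turned to -0.03 with median-of-ratios scaling.

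The 2 pyrimidine nucleotide carriers, which supply the precursors of mitochondrial DNA and RNA, moved apart. SLC25A33 (chr1:9539465-9585173) read 7.58, 8.56 and 6.67 FPKM in the control libraries, 9.16, 9.92 and 10.3 in OGD and 5.34, 7.51 and 5.34 in OGD/R, with OGD above all other libraries but not past the test (0.33 (SE 0.142, adjusted p = 0.062)), and fell to OGD/R by -0.62 (adjusted p = 0.0017). SLC25A36 (chr3:140941836-140980995) read 19.1, 18.3 and 17.4 FPKM in the control libraries, 12.2, 10.6 and 10.7 in OGD and 18.6, 27.1 and 20.6 in OGD/R. It fell by -0.66 (SE 0.13, adjusted p = 0.0012) and rose by 0.91 (SE 0.13, adjusted p = 5.5e-05), and both calls held under all 15 alternatives. Its OGD libraries lay below the other 6, a pattern that 43.5% of all genes tested showed. Their promoters share the E-box CACGTG, which occurred in 7 of 37 carrier promoters (18.9%), 1 of 24 import promoters (4.17%) and 7.73% of all.
The 150 bases before each start are shown 5′ to 3′ on the plus strand, with the E-box in capitals, because this pair holds the same motif and opposite changes.
SLC25A33, chr1:9539315-9539464: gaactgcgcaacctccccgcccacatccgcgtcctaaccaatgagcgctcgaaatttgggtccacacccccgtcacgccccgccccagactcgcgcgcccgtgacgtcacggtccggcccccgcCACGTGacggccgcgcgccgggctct
SLC25A36, chr3:140941686-140941835: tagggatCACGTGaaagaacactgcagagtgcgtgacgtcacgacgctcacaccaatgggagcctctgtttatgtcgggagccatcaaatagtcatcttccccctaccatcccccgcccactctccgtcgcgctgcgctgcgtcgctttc

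Iron and glutathione carriers also split within pairs. The mitoferrins deliver iron for heme and iron-sulfur clusters. Mitoferrin-1, SLC25A37 (chr8:23528956-23575463), read 22.9, 22.1 and 21.8 FPKM in the control libraries, 35.7, 35.4 and 34.1 in OGD and 26.4, 33.3 and 30.1 in OGD/R. It rose by 0.63 (SE 0.096, adjusted p = 0.00025) and was still 0.41 (adjusted p = 0.0055) above control in OGD/R, and both calls held under all 15 alternatives. At a transcript length of 4823 bases it was one of the longer members. Mitoferrin-2, SLC25A28, read 40.4, 30.9 and 36.1 FPKM in the control libraries, 21.6, 25.6 and 27 in OGD and 33.4, 40.3 and 36.2 in OGD/R. It fell by -0.51 (adjusted p = 0.0035) and rose by 0.55 (adjusted p = 0.0014), and both calls were lost with median-of-ratios scaling, at -0.14 and 0.07. SLC25A39 and SLC25A40 take up glutathione. SLC25A40 (chr7:87833568-87876360) read 12.1, 14.8 and 10.0 FPKM in the control libraries, 5.49, 5.1 and 4.61 in OGD and 6.59, 9.09 and 8.36 in OGD/R, the largest fall of any member in OGD at -1.12 (SE 0.153, adjusted p = 0.00012), and it remained -0.55 (adjusted p = 0.012) below control in OGD/R, a call lost without OGD/R replicate 1 at -0.44 (adjusted p = 0.0512). SLC25A39 read 61.4, 53.5 and 55.1 FPKM in the control libraries, 58.6, 62.1 and 58.1 in OGD and 48.2, 51.4 and 51.2 in OGD/R. It did not pass in OGD and fell from OGD to OGD/R by -0.24 (adjusted p = 0.021), lost without OGD replicate 2 or OGD/R replicate 1.

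Of the remaining carriers, SLC25A46 sits in the outer membrane and takes part in mitochondrial dynamics. It read 15.3, 19.5 and 15 FPKM in the control libraries, 11.8, 11.2 and 10.4 in OGD and 13.7, 16.8 and 15.7 in OGD/R, and its fall of -0.53 (adjusted p = 0.0032) was lost with median-of-ratios scaling at -0.18 (adjusted p = 0.2). The uncoupling protein-like SLC25A30 read 7.33, 8.11 and 6.03 FPKM in the control libraries, 4.57, 3.48 and 3.64 in OGD and 5.14, 5.64 and 5.72 in OGD/R, a fall of -0.74 (adjusted p = 0.0009) that held throughout, while its relative SLC25A14 passed no comparison on the deposited scale. Of the carriers of uncertain substrate, SLC25A35 read 4.1, 5.74 and 4.08 FPKM in the control libraries, 3.35, 2.73 and 2.89 in OGD and 5.76, 6.84 and 5.49 in OGD/R, and SLC25A43 read 6.02, 7.32 and 6.35 FPKM in the control libraries, 4.51, 4.51 and 4.07 in OGD and 6.66, 8.91 and 7.4 in OGD/R. In both, every OGD library lay below the other 6, as in 14 of the 37 tested carriers and 43.5% of all genes tested. They fell in OGD by -0.49 (adjusted p = 0.013) and -0.49 (adjusted p = 0.007), both lost with median-of-ratios scaling, and rose to OGD/R by 0.82 (adjusted p = 0.00032) and 0.68 (adjusted p = 0.00053), both lost with quantile normalization. SLC25A16, SLC25A53 and SLC25A4 had no call on the deposited scale. Not tested for low level were SLC25A18, SLC25A21, SLC25A27, SLC25A34, SLC25A41, SLC25A45 and SLC25A52, each under 1 FPKM in every library, and among import genes TOMM20L, at most 0.670 FPKM, and the non-coding read-through TIMM23B-AGAP6, at 0 to 2.66 FPKM.

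Transcript length moved with these changes. Over the 24 import subunits the correlation of log2 length with the log2 fold change was -0.55 in OGD, 0.60 from OGD to OGD/R and 0.49 against control, and over the 37 carriers -0.16, 0.27 and 0.25. These are descriptions across genes of the same 9 libraries, not tests. The 6 tested import transcripts under 1 kb (TOMM5, TOMM6, TOMM7, TIMM8B, TIMM10 and TIMM17B) all rose. With the length trend removed, their changes in OGD were 0.52, 0.52, 0.63, 0.53, 0.75 and 0.30. The longer TOMM20, at 3387 bases, and TIMM17A, at 1659 bases, came to 0.73 and 0.64.

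**Figure D3:**
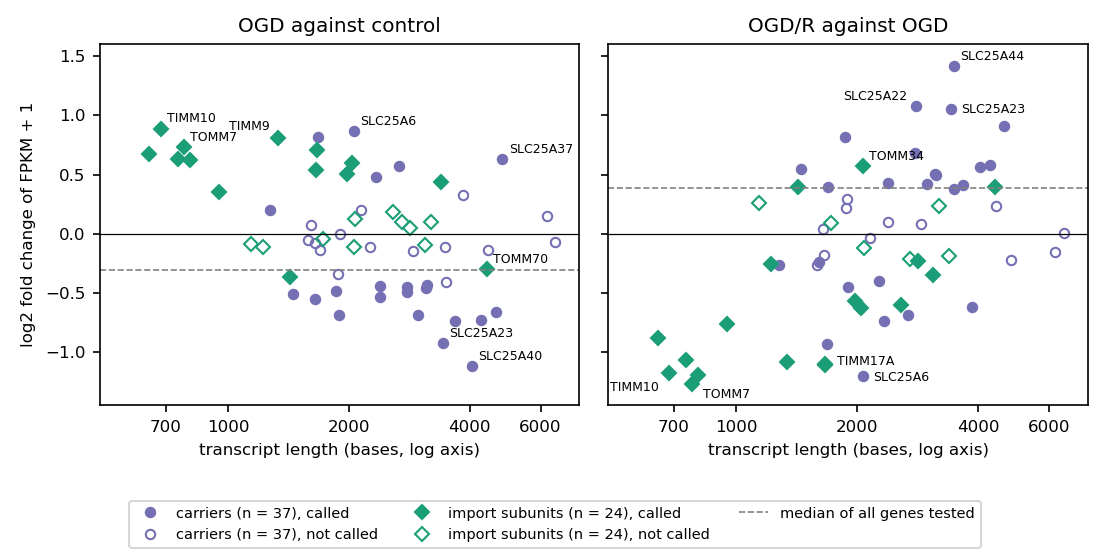
Log2 fold change of FPKM + 1 (vertical axis) against transcript length in bases (horizontal log axis) for the 37 tested carriers (circles) and 24 tested import subunits (diamonds), filled where called; the dashed line is the median of all genes tested. The shortest import subunits (TOMM5, TOMM6, TOMM7, TIMM8B, TIMM10 and TIMM17B) were called higher at the left (OGD against control) and lower at the right (OGD/R against OGD). So were the longer TIMM8A, TIMM9 and TIMM17A, among others. SLC25A37 is a long transcript that is high in OGD, and SLC25A44, SLC25A22 and SLC25A23 are the highest carriers in OGD/R.

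A ratio between related genes depends little on a scaling common to a whole library, apart from the 1 FPKM offset. In 20 pairs the log2 ratio was compared over the 3 groups by an exact permutation test of every assignment of the libraries to 3 groups of 3 and 6 pairs reached the smallest p the design allows, 0.00357 (adjusted p = 0.0119 over the 20 pairs). SLC25A5 over SLC25A6 stood at 1.57 ± 0.041 in the control libraries, 0.90 ± 0.0307 under OGD and 1.84 ± 0.318 after reoxygenation (mean ± SD, n = 3). In single libraries it was 1.61, 1.53 and 1.56, then 0.88, 0.93 and 0.89, then 1.62, 2.21 and 1.69. The share of ANT3 message beside ANT2 was higher in each OGD library than in any other. SLC25A28 over SLC25A37 changed sign, from 0.65 ± 0.171 to -0.49 ± 0.192 and back to 0.28 ± 0.0367. With the length trend removed the pair's adjusted p over the 3 groups was 0.0625, which does not single out OGD. Under that setting SLC25A28 was still called lower and SLC25A37 higher in OGD than in control. Mitoferrin-2 was the more abundant mitoferrin message per length in control and OGD/R, and mitoferrin-1 in OGD.

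SLC25A33 over SLC25A36 went from -1.17 ± 0.135 to -0.17 ± 0.177 and then -1.71 ± 0.0722, and SLC25A39 over SLC25A40 from 2.13 ± 0.298 to 3.32 ± 0.108 and 2.52 ± 0.163. The 3 groups were apart in each. TIMM17A over TIMM17B was narrow, at 1.11 ± 0.00733, 1.30 ± 0.101 and 0.95 ± 0.0178, and SLC25A4 over SLC25A5 stood at -4.86 ± 0.0393, -5.19 ± 0.158 and -4.70 ± 0.126. These last 2 were lost with quantile normalization, at adjusted p = 0.25 and 0.13, and the SLC25A4 pair also with the length trend removed, at 0.40. Among chaperone partners, TIMM9 over TIMM10 (-0.93 ± 0.276, -1.02 ± 0.167 and -0.93 ± 0.301) did not pass, with p = 0.91 by the same exact permutation test. The partners TIMM8A over TIMM13 stood at -1.985 ± 0.314, -1.79 ± 0.0884 and -2.32 ± 0.149. That ratio changed by -0.53 from OGD to OGD/R but did not pass by the exact permutation test (p = 0.0857, adjusted p = 0.122). TIMM8A over TIMM8B, a related pair and not partners, did not pass, with p = 0.80 by the exact permutation test. The difference between OGD and control was -0.08 for TIMM9 over TIMM10 and 0.08 for TIMM8A over TIMM8B, small beside the SDs of the control ratios, 0.276 and 0.439.

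**Figure D4:**
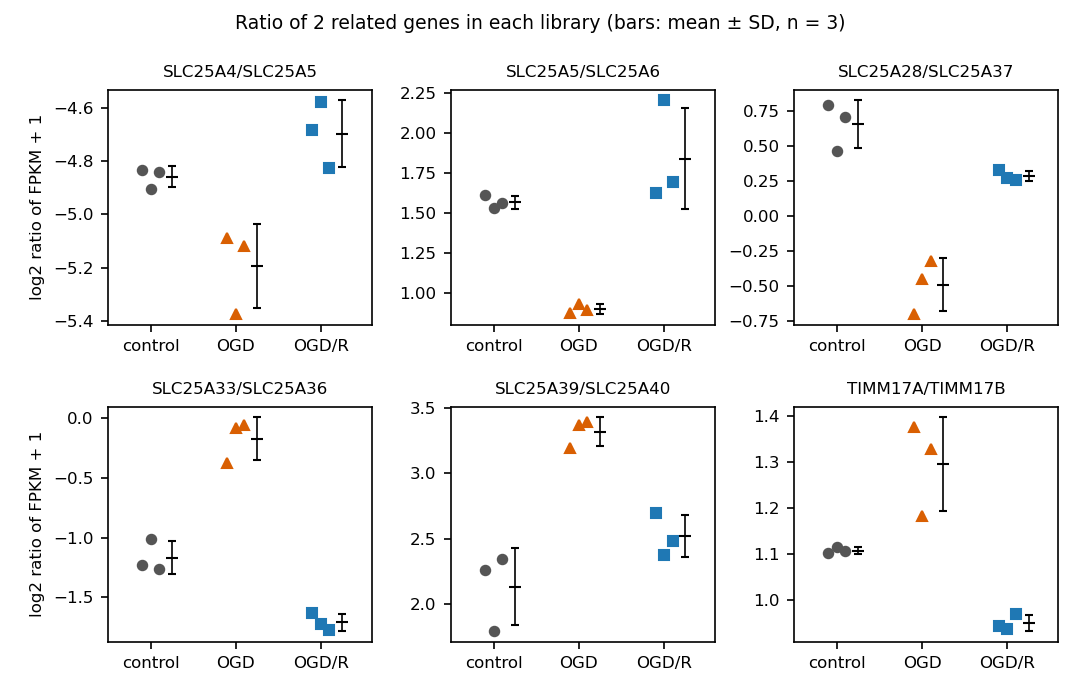
Log2 ratio of FPKM + 1 of 2 related genes in each library (points; vertical axes differ between panels and do not start at 0) with the group mean ± SD beside them, n = 3, for the 6 pairs with adjusted p = 0.0119. In each panel the 3 OGD points lie apart from the 3 control and the 3 OGD/R points.

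A pair of further lists sets the members beside their neighbours in function. Of 30 other genes of import, processing and assembly, all tested, 8 rose and 4 fell in OGD, 5 rose and 14 fell from OGD to OGD/R, and 3 were higher and 8 lower in OGD/R than in control, with medians of 0.07, -0.19 and -0.13. For all genes the shares were 11.3% higher and 46.7% lower, 53.3% and 17.4%, and 24.7% and 16.5%. With median-of-ratios scaling 16 of the 30 were higher and 2 lower in OGD (all genes 27.1% and 22.4%), then 2 and 23 (31.7% and 35%). With the length trend removed the counts were 14 and 2 (21.3% and 23.4%), then 4 and 18 (30% and 30.9%). PAM16, a subunit of the TIM23 motor, had 34.3 ± 5 FPKM in the control libraries, 68 ± 3.63 under OGD and 22.2 ± 2.24 after reoxygenation (mean ± SD, n = 3). Its changes were 0.98 (adjusted p = 4.7e-05) and -1.57 (adjusted p = 4.1e-07), larger than those of any TIMM or TOMM gene. HSPA9, the chaperone that pulls proteins into the matrix, went from 58.5 ± 5.61 to 84.4 ± 4.74 and stayed at 80.4 ± 10.0, 0.45 (adjusted p = 0.0049) above control. DNAJC11, which associates with the MICOS complex of the inner membrane, did the reverse of the TOM subunits, with 8.52 ± 1.96, 4.85 ± 0.395 and 15.9 ± 1.95 FPKM and changes of -0.68 (adjusted p = 0.0028) and 1.53 (adjusted p = 3.9e-06). PMPCA, a subunit of the presequence peptidase, did not pass in OGD and was 0.65 (adjusted p = 0.0015) above control in OGD/R.

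Of 30 mitochondrial transporters and shuttle enzymes outside the SLC25 family, 28 were tested. In OGD 3 rose and 13 fell, from OGD to OGD/R 12 rose and 7 fell, and against control 4 were higher and 10 lower. In OGD these shares were close to the 11.3% higher and 46.7% lower of all genes. From OGD to OGD/R 53.3% of all genes rose and 17.4% fell, and against control 24.7% were higher and 16.5% lower. With median-of-ratios scaling 10 were higher and 4 lower in OGD (all genes 27.1% and 22.4%), then 6 and 13 (31.7% and 35%). With the length trend removed the counts were 4 and 7 (21.3% and 23.4%), then 6 and 11 (30% and 30.9%). Among the sideroflexins, a family that includes serine carriers, SFXN3 went from 17.4 ± 3.1 to 7.99 ± 0.0935 and 21.3 ± 2.01 FPKM, with changes of -1.01 (adjusted p = 7.7e-05) and 1.31 (adjusted p = 3.3e-06), while SFXN4, which serves iron-sulfur cluster assembly, went from 16.4 ± 0.759 to 26.2 ± 0.965 and 12.3 ± 1.48, with 0.64 (adjusted p = 0.00037) and -1.03 (adjusted p = 3.8e-06). Both subunits of the mitochondrial pyruvate carrier ended below control, MPC1 by -0.75 (adjusted p = 0.0006) and MPC2 by -0.80 (adjusted p = 0.00015), as did SLC25A1 and SLC25A11. MCU, the pore of the calcium uniporter, fell in OGD by -0.58 (adjusted p = 0.001). VDAC1 and VDAC3, the outer membrane channels, did not pass in OGD and then parted, at 0.31 (adjusted p = 0.014) and -0.48 (adjusted p = 0.00049) against control.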

How the data were processed

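RNA-seq was made from hCMEC/D3 cells, with libraries prepared from total RNA by a SMARTer mRNA kit per the labels' protocols. The authors deposited 1 table of FPKM values per gene and library. The build was GRCh38 per the submitters' processing notes, and for the aligner, the counter and the gene annotation the sources used here give none. Groups and replicate numbers came from sample titles, 3 libraries in each of 3 groups. No label says that replicates were separate cultures, so the p-values speak to the variation among these libraries, possibly technical. No 2 libraries held identical values. Within groups the correlation of log2 values was 0.980 to 0.995, between groups 0.923 to 0.977. FPKM gave no whole reads: the commonest ratio of low values held 1.53% of 327 genes, so no count test was run.

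The 10818 genes that reached 1 FPKM in 3 or more of the 9 libraries were tested as log2(FPKM + 1) in 1 limma 3.58.1 fit of 3 groups (R 4.3.3, lmFit, eBayes with an intensity trend, 2-sided, Benjamini-Hochberg over all genes tested, threshold 0.05), which was tested on simulated data. Transcript lengths are from GENCODE v29, and gene positions, overlaps and promoters from RefSeq's GRCh38.p14. Alternatives were an offset of 0.1 FPKM, no expression filter, median-of-ratios scaling, quantile normalization, removal of the length trend (10804 genes with a length), the replicate number as a block, and leaving out each library. Named genes were the members listed by role, with every library's value where a comparison passed, and the 4 called members with the largest change in each class, direction and comparison. The rule by symbol and the gene lists were chosen with earlier results of these data known. The values of 1 carrier that enters the counts are not reported here. Overlapping coding genes touch 11 carriers and 8 import subunits, and strand use in counting is not given, so values of such genes (TIMM9 with KIAA0586, SLC25A22 with PANO1, TIMM13 with TMPRSS9) may include a neighbour's reads.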

Additional observations from a re-analysis of the deposited data

How the results depend on the processing

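Counts higher and lower that moved by over 1.5 times, with all counts of the same setting, were as follows; the cause was not tested. Median-of-ratios scaling gave 13 and 7 carriers and 19 and 0 import subunits for OGD against control, 6 and 18 carriers and 0 and 19 import subunits for OGD/R against OGD and 3 and 13 carriers and 1 and 8 import subunits for OGD/R against control. Quantile normalization gave 11 and 8 carriers and 15 and 0 import subunits for OGD against control, 5 and 17 carriers and 1 and 17 import subunits for OGD/R against OGD and 3 and 12 carriers and 2 and 8 import subunits for OGD/R against control. Removal of the length trend gave 10 and 10 carriers and 17 and 0 import subunits for OGD against control, 8 and 14 carriers and 2 and 17 import subunits for OGD/R against OGD and 4 and 11 carriers and 1 and 6 import subunits for OGD/R against control. The shares of all genes called under these settings are given with the import counts above. An offset of 0.1 FPKM changed no count. Without an expression filter 1 import subunit was lower in OGD. Leaving out 1 library at a time gave for OGD against control 4 to 7 carriers higher, 13 to 18 lower, 11 to 12 import subunits higher and 0 to 2 lower, for OGD/R against OGD 13 to 17 carriers higher, 8 to 10 lower, 2 to 3 import subunits higher and 13 to 16 lower, and for OGD/R against control 3 to 4 carriers higher, 4 to 8 lower, 1 to 2 import subunits higher and 5 to 11 lower. The 11 import subunits lower in OGD/R than in control came without control replicate 2. Same-numbered libraries did not deviate together: the correlation of their deviations from the group means ran from -0.20 to 0.15 over 9 pairs, 1 of them above 0.1. The labels do not say whether same-numbered samples were paired, and with 3 libraries a group this check cannot decide it. With the replicate number as a block the counts were 5 and 16 carriers and 12 and 0 import subunits for OGD against control, 15 and 9 carriers and 3 and 14 import subunits for OGD/R against OGD and 3 and 6 carriers and 1 and 8 import subunits for OGD/R against control. Log2 fold changes that turned sign, with a call before or after, were under median-of-ratios scaling, in OGD against control SLC25A11 (0.37), SLC25A14 (0.27), SLC25A17 (0.26), TIMM21 (0.27), TOMM34 (0.26) and TOMM70 (0.066) and in OGD/R against OGD SLC25A1 (-0.44), SLC25A12 (-0.016), SLC25A16 (-0.37), SLC25A25 (-0.022), SLC25A29 (-0.31), SLC25A32 (-0.38), SLC25A46 (-0.026), SLC25A51 (-0.027), TIMM29 (-0.057), TOMM40 (-0.39) and TOMM70 (-0.069). With quantile normalization they were, in OGD against control SLC25A14 (0.27), SLC25A15 (0.33), SLC25A16 (0.31), SLC25A5 (-0.036), TIMM29 (0.00077) and TOMM70 (0.00019) and in OGD/R against OGD SLC25A12 (-0.11), SLC25A16 (-0.57), SLC25A20 (-0.33), SLC25A25 (-0.21), SLC25A29 (-0.47), SLC25A30 (-0.17), SLC25A32 (-0.27), SLC25A46 (-0.013), SLC25A5 (0.15), SLC25A51 (-0.16) and TIMM29 (-0.070). With removal of the length trend they were, in OGD against control SLC25A16 (0.39) and TOMM70 (0.062) and in OGD/R against OGD SLC25A16 (-0.74), SLC25A25 (-0.046), SLC25A30 (-0.033), SLC25A4 (-0.32) and TOMM70 (-0.15). Of the 20 gene pairs, 6 passed with either offset and with median-of-ratios scaling. Without a filter the same 6 passed, and the count became 7 because pairs with a gene under the filter also entered. Of the 20, 5 passed with quantile normalization, which turned the OGD difference of SLC25A4 over SLC25A5 to 0.27, and 4 with the length trend removed. Leaving out a library gave 6 to 12 pairs, the highest without control replicate 3. No replicate block was run on the pairs. FPKM carry no depth, so counting error in low members could not be given.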
